A study of Mus musculus with 4 samples.

Results

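Antioxidant and glutathione enzymes were described in the seminal vesicles of 4 wild-type mice. The members were the probe sets whose platform annotation gives a single gene symbol belonging to the superoxide dismutases, catalase, glutathione peroxidases, peroxiredoxins, thioredoxins, glutaredoxins, glutathione transferases, glutathione synthesis and recycling enzymes, heme oxygenases, quinone reductases or methionine sulfoxide reductases. A probe set is a group of short probes on the array that reads 1 transcript or a few related ones. By this rule on names, 73 of 12422 probe sets were members, and they read 55 of 8251 genes. The rule used no measured value. Because it matches the start of a symbol, it also takes in 7 genes of thioredoxin-domain or thioredoxin-like proteins, some of which have other jobs in the cell. A further 4 probe sets carried a matching symbol together with another gene's and were not counted.

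The tissue was seminal vesicle, the male accessory gland that makes most of the seminal fluid, and the whole gland was used. All 4 mice were Nkx3.1 +/+ C57Bl/6J animals of 15 months, untreated as far as the labels say, with 1 Affymetrix Mu74AV2 array per mouse. The labels give 1 group, so no genotype, age or tissue could be compared. Mice are numbered 1 to 4 only as names, and the labels state neither litter nor hybridisation batch, so the spread between mice may be partly technical.

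Cells remove superoxide with superoxide dismutases, which turn it into hydrogen peroxide. Catalase, glutathione peroxidases and peroxiredoxins then reduce the peroxide. Glutathione peroxidases draw on the tripeptide glutathione, which glutathione reductase keeps reduced, and peroxiredoxins draw on thioredoxin, which thioredoxin reductases keep reduced. Glutathione transferases join glutathione to reactive compounds so that they can be exported. In male reproductive glands these systems also bear on sperm, whose membranes are rich in oxidisable lipids.

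Expression values are on the log2 scale, so a difference of 1 is a doubling of signal. Levels of different probe sets cannot be set against each other, because probes differ in how strongly they bind. Each value was therefore read against a background limit, which on every array was the 90th percentile among 64 probe sets that read 52 genes typical of other organs. The limit was 6.12, 5.98, 6.06 and 6.21 in mice 1 to 4. A gene counted as above the background range when any of its probe sets exceeded the limit on all 4 arrays. Being under it does not show that a gene is silent.

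The arrays resembled each other, with Pearson's r between 0.992 and 0.994 for any pair, computed over probe sets, although these are not independent of one another. The tissue label was checked against markers. Of 6 measured seminal vesicle secretory genes 6 were above the background range, as were 7 of 8 luminal epithelial and 8 of 8 smooth muscle genes. Of the basal epithelial markers 0 of 4 were, of the epididymis and vas deferens markers 0 of 3 and of the prostate markers 0 of 2. The urothelial gene Upk2 was above.

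Mouse 1 differed from the others in a prostate gene. Pbsn, which encodes probasin, a secretory protein of the mouse prostate, had 6.57 in mouse 1 against 3.02, 3.18 and 3.47 in mice 2 to 4, so it exceeded the limit in mouse 1 alone. Limma's variance model called this spread (SD 1.68, adjusted p = 0.0015), and the SD was the widest of all 12422 probe sets. The other measured prostate gene, Msmb, had 3.42, 3.05, 3.52 and 3.58 and was under the limit in all mice. Mouse 4 stood low in genes of antibody-producing cells, with Ighm, the heavy chain of IgM, at 8.51, 9.14, 8.67 and 6.57 in mice 1 to 4 (limma, adjusted p = 0.00733). Igha, the heavy chain of IgA, had 7.0, 7.96, 7.98 and 6.34 (limma, adjusted p = 0.0242), and Jchain, which joins their polymers, had 5.86, 6.55, 6.74 and 5.20 (limma, adjusted p = 0.0332). Those 4 genes were the only ones called among 78 measured marker genes, beside 0.282% of all 12422 probe sets. The part of other tissue or cell types in the members' values was not tested. Without mouse 1, and equally without mouse 4, 26 member genes were above the background range and 0 members were called variable. Leaving out a mouse can only keep or raise the number above, and fewer mice weaken the variance test. These numbers therefore cannot tell how far either mouse bears on the members.

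Of the 55 member genes 26, or 47.3%, were above the background range, beside 29.2% of all 8251 genes. Counted by probe sets these were 31 of 73, beside 23.9% of all probe sets. These shares describe the list and were not tested. The calls were spread over every role: 2 of 4 superoxide dismutase and catalase genes, 3 of 6 glutathione peroxidases, 8 of 12 genes of the peroxiredoxin and thioredoxin system, 3 of 5 of glutathione synthesis and recycling, 7 of 18 glutathione transferases, 1 of 3 heme oxygenase and quinone reductase genes, and 2 of 7 thioredoxin-domain genes.

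**Figure D1:**
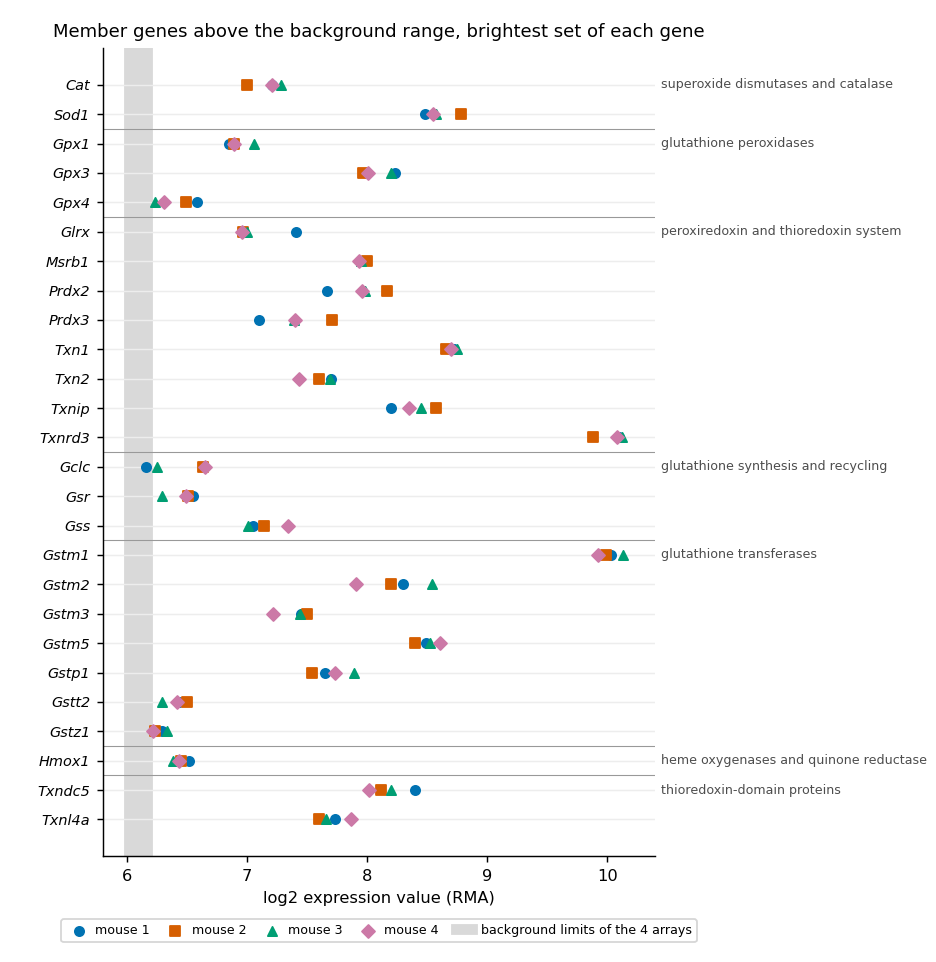
Log2 expression value (horizontal axis) in each of the 4 mice for the 26 member genes above the background range, each by its probe set of highest mean, grouped by role. Points are single mice and the grey band spans the background limits of the 4 arrays, 5.98 to 6.21. For most genes the 4 points lie close together, with wider spreads for Prdx2, Prdx3, Glrx, Gclc and Gstm2.

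Among the enzymes that act on superoxide, Sod1, the cytosolic copper-zinc superoxide dismutase, had 8.48, 8.78, 8.57 and 8.55 in mice 1 to 4. All 4 values were far above the limit and mouse 2 was highest. Sod2, the manganese enzyme of mitochondria, averaged 5.48 ± 0.12 (SD, n = 4), and Sod3, the extracellular enzyme, 5.63 ± 0.10 (SD, n = 4). Neither exceeded the limit on any array. Ccs, the copper chaperone that loads SOD1 and a gene outside the members, was above the limit at 7.01 ± 0.15 (SD, n = 4). Its probe set carries the suffix r, Affymetrix's mark for relaxed rules of probe choice, so this call is less certain.

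Catalase, the heme enzyme of peroxisomes that splits hydrogen peroxide, was read by a pair of probe sets that disagreed. One had 7.21, 7.0, 7.28 and 7.21 in mice 1 to 4 and lay above the limit everywhere. The other had 3.60, 3.61, 3.71 and 3.25 and lay under it everywhere. The call for Cat therefore rests on the first alone, which carries the suffix f, Affymetrix's mark for probes shared within a sequence family.

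Of the glutathione peroxidases, Gpx1, the cytosolic selenoenzyme, had 6.85, 6.89, 7.06 and 6.89 in mice 1 to 4. Gpx3, the secreted form found in plasma, had 8.23, 7.97, 8.20 and 8.01. Gpx4, which reduces lipid hydroperoxides within membranes and is also a structural protein of sperm, had 6.58, 6.49, 6.23 and 6.31. All 3 were above the limit in every mouse, Gpx4 only narrowly in mouse 4, and none of them varied by more than 0.4 between mice.

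The other 3 glutathione peroxidases were under the limit on all arrays. Gpx2, best known from the gut epithelium, averaged 4.63 ± 0.10 (SD, n = 4). Gpx7, a cysteine-based form of the endoplasmic reticulum, averaged 3.76 ± 0.09 (SD, n = 4). Gpx5, which the epididymis secretes onto sperm, had means of 4.44 and 4.24 by its 2 probe sets, each with an SD of 0.05. The other measured epididymal markers were likewise under the limit, with Lcn5 at 3.12 ± 0.06 and Adam7 at 4.31 ± 0.06 (SD, n = 4 each).

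In the thioredoxin system, Txn1, the cytosolic thioredoxin, had 8.72, 8.66, 8.75 and 8.70 in mice 1 to 4, and Txn2, the mitochondrial form, had 7.70, 7.6, 7.69 and 7.43. The 4 values of Txn1 spanned less than 0.1. Txnip, which binds and inhibits thioredoxin, had 8.20, 8.57, 8.45 and 8.35 by one probe set and a mean of 5.95 by another that exceeded the limit on no array. Of the reductases that recycle thioredoxin, Txnrd1 of the cytosol averaged 5.27 ± 0.13 and Txnrd2 of mitochondria 4.74 ± 0.12 (SD, n = 4 each), both under the limit on all arrays.

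Txnrd3, a thioredoxin and glutathione reductase best known from testis, gave conflicting readings. Its first probe set had 10.10, 9.88, 10.12 and 10.08 in mice 1 to 4, while the second had 5.67, 5.61, 5.59 and 5.63. The first lay above the limit in every mouse and the second under it. Both carry the suffix r, which marks sets for which Affymetrix relaxed its rules of probe choice, so which of them reads Txnrd3 was not settled.

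Peroxiredoxins reduce peroxides with a reactive cysteine that thioredoxin restores. Prdx3, the mitochondrial form, had 7.10, 7.71, 7.39 and 7.4 in mice 1 to 4, above the limit throughout, with mouse 1 lowest and mouse 2 highest. Prdx2, abundant in the cytosol and in red cells, was above the limit by 1 of its 3 probe sets, at 7.67, 8.17, 7.98 and 7.96 in mice 1 to 4. Its other probe sets averaged 5.47 and 2.71 and were not above. Prdx4 of the endoplasmic reticulum averaged 3.74 ± 0.19 (SD, n = 4) and was not above.

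Sulfiredoxin, Srxn1, which repairs over-oxidised peroxiredoxins, was under the limit by both of its probe sets, at means of 5.06 and 4.70. Msrb1, a selenoprotein that reduces methionine sulfoxide, had 7.95, 8.0, 7.95 and 7.93 in mice 1 to 4. Its SD of 0.03 was among the smallest of the members above the limit. Glrx, the glutaredoxin that removes glutathione from proteins, had 7.41 in mouse 1 against 6.97, 7.0 and 6.96 in mice 2 to 4. Mouse 1 stood apart while the other mice were within 0.04 of each other, and limma's variance model did not call the spread (SD 0.22, adjusted p = 0.973). A gap of this kind, by the range rule of Dixon, was found in 2 of 73 member probe sets, beside 5.09% of all probe sets.

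Glutathione is made in 2 steps. Gclc, the catalytic subunit of glutamate-cysteine ligase, the first and rate-limiting enzyme, had 6.16, 6.63, 6.25 and 6.65 in mice 1 to 4, so that mice 2 and 4 were the higher ones. All values exceeded the limits, narrowly in mice 1 and 3. Gclm, its modifier subunit, had 5.94, 6.57, 6.09 and 6.04, with mouse 2 highest, and exceeded the limit in mice 2 and 3 only. The subunits thus did not order the mice alike: mouse 4 was highest for Gclc and under the limit for Gclm.

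Gss, glutathione synthetase, which adds glycine in the next step, had 7.05, 7.14, 7.01 and 7.34 in mice 1 to 4 and was above by both probe sets. Gsr, glutathione reductase, had 6.55, 6.51, 6.29 and 6.49 and was above in every mouse. Ggt5, a gamma-glutamyltransferase that cleaves glutathione conjugates outside the cell, averaged 3.99 ± 0.14 (SD, n = 4) and was not above. The recycling enzyme Gsr and both synthesis steps were therefore read above background, the first step by its catalytic subunit.

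Of the 7 glutathione transferase genes above the limit, 4 were of the mu class. Its 5 measured genes lie within a run of 6 protein-coding genes of assembly GRCm38.p6. Gstm1, Gstm3 and Gstm5 were above by suffixed probe sets alone. By unsuffixed ones Gstm2 was the only mu gene above, beside Gstp1, Gstt2 and Gstz1 of other classes. Gstm1 had 10.03, 9.99, 10.13 and 9.92 in mice 1 to 4 by its brighter probe set. Gstm2 had 8.30, 8.20, 8.54 and 7.91, with mouse 3 highest and mouse 4 lowest. Its second probe set had 7.38, 7.16, 7.16 and 7.26, an order in which mouse 1 was highest.

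Gstm3 had 7.45, 7.50, 7.44 and 7.22 in mice 1 to 4, lowest in mouse 4. Gstm5 was read by 4 probe sets, of which 2 were above the limit. The brightest had 8.49, 8.40, 8.52 and 8.61, and the one without a suffix letter averaged 5.25 and was not above. Gstm6 was under the limit by both probe sets, at means of 4.77 and 2.65. Sequences within this cluster are alike and some of its probe sets carry the family suffix, so reads of one mu gene may include its neighbours, and the counts of mu genes are uncertain.

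Of the 4 measured alpha class genes 0 were above the limit on all arrays. Gsta2 averaged 4.94 ± 0.19, Gsta4 4.2 ± 0.10, Gsta1 3.79 ± 0.09 and Gsta3 3.64 ± 0.10 (SD, n = 4 each). Alpha transferases are abundant in liver, and Gsta4 conjugates 4-hydroxynonenal, a product of lipid peroxidation. Gsta1, Gsta2 and Gsta4 lie near Gclc in GRCm38.p6, within 12 protein-coding genes.

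Of the remaining cytosolic classes, Gstp1 of the pi class had 7.65, 7.54, 7.89 and 7.73 in mice 1 to 4. Gstt2 of the theta class had 6.43, 6.5, 6.29 and 6.42, while its neighbour Gstt1 averaged 5.46 ± 0.14 (SD, n = 4) and was not above. Gstz1, which also serves in tyrosine breakdown, had 6.29, 6.23, 6.33 and 6.22 and cleared the limit of mouse 4 only just. Gstk1, a transferase of mitochondria and peroxisomes, had 6.07, 6.13, 5.98 and 6.07 and was above in mouse 2 alone. Gsto1, which reduces dehydroascorbate, had 5.10, 5.66, 5.47 and 5.16 and was under the limit in all mice, with mouse 2 highest and mouse 1 lowest.

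The microsomal transferases were not above the limit. Mgst3 came closest, with 5.79, 6.33, 5.86 and 6.08 in mice 1 to 4, above the limit in mouse 2 alone. Its second probe set averaged 2.15. Mgst1 averaged 3.38 ± 0.16 (SD, n = 4), and Mgst2 had means of 3.70 and 2.76 by its 2 probe sets.

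Hmox1, the stress-induced heme oxygenase that breaks heme down to biliverdin, had 6.52, 6.45, 6.38 and 6.43 in mice 1 to 4, above the limit in all and with an SD of 0.06. Hmox2, the constitutive form, averaged 3.97 ± 0.04 (SD, n = 4). Nqo1, a quinone reductase widely used as a readout of the transcription factor NRF2, had means of 3.23 and 2.80 by its 2 probe sets. Neither Hmox2 nor Nqo1 exceeded the limit on any array.

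Among the thioredoxin-domain proteins, Txndc5, a disulfide isomerase of the endoplasmic reticulum, had 8.40, 8.12, 8.20 and 8.02 in mice 1 to 4. Txnl4a, a small protein of the spliceosome, had 7.73, 7.6, 7.66 and 7.87. Txndc17, a cytosolic thioredoxin-related protein, had 6.21, 6.43, 5.99 and 6.34 and missed the limit in mouse 3 alone. Txndc9, a regulator of the CCT chaperonin, averaged 5.39 ± 0.26, Txnl1, which associates with the proteasome, 5.24 ± 0.24, and the endoplasmic reticulum proteins Txndc12 and Txndc16 5.38 ± 0.07 and 5.40 ± 0.09 (SD, n = 4 each). Those 4 genes were not above.

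How far a reading depended on the probe set was visible in the 15 member genes read by more than 1. Each probe set was read against the limits only, not against the others of its gene. In 5 of the 15, Cat, Gstm5, Prdx2, Txnip and Txnrd3, some probe sets were above on all arrays and some were not. In 4, Gss, Gstm1, Gstm2 and Gstm3, all were above, and in 6 none was. Of the 26 genes above the background range, 19 were so by a probe set whose name has no suffix letter. The other 7, Cat, Gstm1, Gstm3, Gstm5, Prdx2, Txnip and Txnrd3, were above only by probe sets that Affymetrix marked as shared or chosen under relaxed rules. With unsuffixed probe sets alone, 38% of 50 member genes were above, beside 26.7% of 7660 genes of the array.

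**Figure D2:**
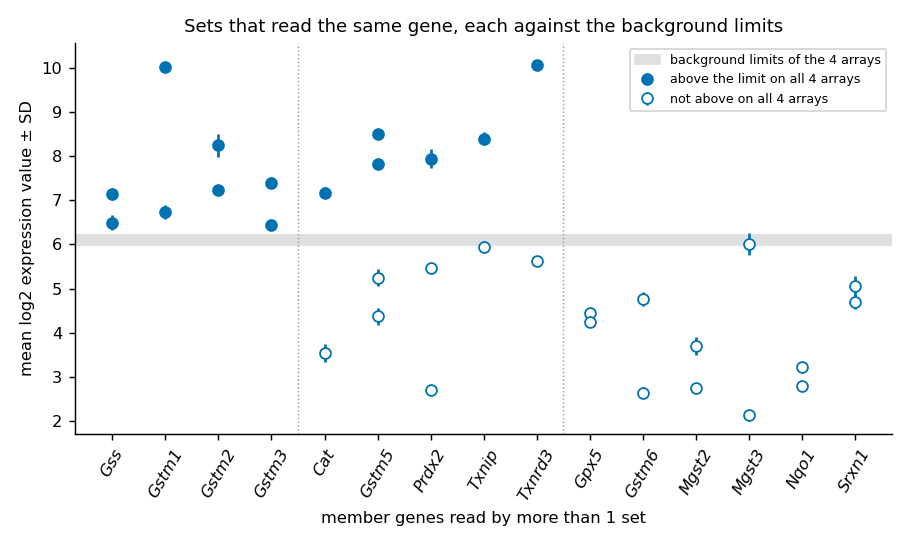
Mean log2 expression value over 4 mice (vertical axis, bars are SD) of every probe set that reads a member gene with more than 1 probe set, with dotted lines between the genes whose probe sets were all above, those whose calls disagreed and those with none above. Filled points exceeded the background limit on all 4 arrays and open points did not, and the grey band spans the limits. The calls disagree for 5 of the 15 genes, from Cat to Txnrd3.

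It was then asked whether any member varied from mouse to mouse beyond what is usual on these arrays. Each probe set's variance over the 4 mice was set against limma's prior variance for probe sets of like signal. At an adjusted p under 0.05, 0 of the 73 member probe sets passed, beside 0.282% of all 12422 probe sets. At an unadjusted p under 0.05 stood 3 members, or 4.11%, beside 5.44% of all. These were Gclm (SD 0.28, adjusted p = 0.791), Gclc (SD 0.25, adjusted p = 0.906) and Gsto1 (SD 0.26, adjusted p = 0.908), all by limma's variance model. With 4 mice such a test can find only wide differences, so these results do not show that the members were alike in all mice.

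The typical spread of the members was also close to that of the array. Their median SD was 0.122, beside 0.112 over all probe sets. A range over 0.5 between mice was found for 8 members, or 11%, beside 8.54% of all probe sets, and these 8 were Prdx2, Txnl1, Gclm, Gstm2, Prdx3, Mgst3, Gsto1 and Txndc9. At the other end Gstm3 by its second probe set (SD 0.02), Msrb1 (SD 0.03) and Txn1 (SD 0.04) barely differed between mice.

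**Figure D3:**
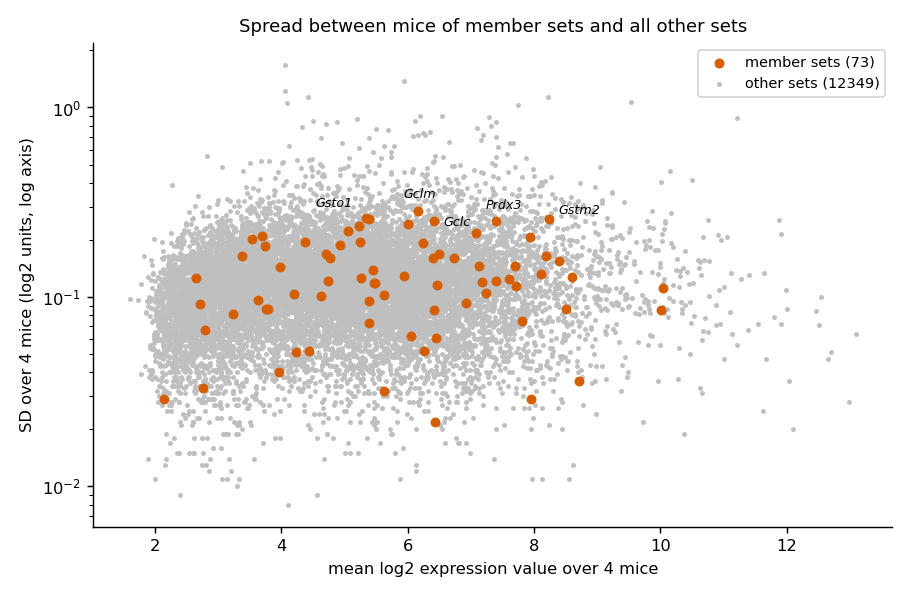
SD over the 4 mice (vertical axis, log scale, log2 units) against mean log2 expression value (horizontal axis) for the 73 member probe sets (orange) and all other probe sets (grey). The members lie inside the cloud at SDs from 0.02 to 0.28, and none stands at the upper edge.

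Several members had the same mice at their ends. Prdx2, Prdx3, Sod1, Txnip, Gclm, Gstm5, Gsto1, Mgst3 and Txnl1 each had a probe set that was highest in mouse 2 and lowest in mouse 1. That is 9 of 73 member probe sets, or 12.3%, beside 7.66% of all probe sets. Above the background range it was 4 of 31, or 12.9%, beside 10.9%. This order was noticed in the values and then counted, and the shares are a description. None of the other probe sets of Txnip, Gstm5, Prdx2 and Mgst3 had this order. The dimmer Txnip probe set ran in reverse, with its peak in mouse 1 and its minimum in mouse 2. Both Gstm5 probe sets that exceeded the limit on all arrays peaked in mouse 4 and had their minimum in mouse 2.

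Cell type markers also differed between mice, not all with the same mice at their ends. Smooth muscle genes deviated from their own 4-mouse means by 0.38, -0.20, -0.04 and -0.14 across mice 1 to 4, with 8 of 8 highest in mouse 1. Among them Cnn1, a contractile protein gene, had 10.61 in mouse 1 against 9.73, 9.88 and 9.81 in mice 2 to 4. Cnn1 and the prostate gene Pbsn peaked in mouse 1 and had their lowest value in mouse 2. That is the reverse of the 9 member probe sets just counted. Not every gene of these marker lists shared it. The smooth muscle minimum fell in mouse 2 for 4 of the 8 genes, in mouse 3 for Actg2 and Des, and in mouse 4 for Myh11 and Myl9. Msmb, the other prostate gene, was lowest in mouse 2 but peaked in mouse 4. Glrx also stood high in mouse 1. Luminal epithelial genes deviated by -0.06, 0.12, -0.08 and 0.02, with 4 of 7 highest in mouse 2 and the lowest mean in mouse 3. Hba-a1, an alpha globin gene of red cells, had 7.88, 8.51, 7.70 and 8.39, so that mouse 2 was highest and mouse 3 lowest. The part of these in the members' values was not tested. In such whole-gland samples fewer cells of a type and less RNA per cell cannot be told apart.

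Over the 28 member genes whose brightest probe set had a mean above the mean limit of 6.09, there was hardly any common shift. Their mean deviation was -0.01, 0.03, 0 and -0.02 across mice 1 to 4. The number of these genes that were highest was 7, 9, 8 and 4 in mice 1 to 4, and the number lowest was 7, 7, 6 and 8. By role the deviations were wider for glutathione synthesis and recycling, at -0.12, 0.17, -0.13 and 0.08 over 4 genes. Gss entered by its brighter probe set, at -0.09, 0.01, -0.12 and 0.20. Its second probe set, also above the limit, ran the other way at 0.08, -0.09, 0.19 and -0.18. Gclc deviated by -0.26, 0.20, -0.17 and 0.23 and Gclm by -0.22, 0.41, -0.07 and -0.12, while Gsr had 0.09, 0.05, -0.17 and 0.03 and so was not low in mouse 1. The red cell and luminal epithelial lists also had positive mean deviations in mice 2 and 4 and negative ones in mice 1 and 3. The luminal values are those above, only 0.02 in mouse 4, and the red cell list, here Hba-a1 alone, deviated by -0.25, 0.39, -0.42 and 0.27. Single markers differed. Krt18 and Krt19 followed this order, while Cldn3 was lowest in mouse 4, at 7.85, and Cldn7 highest in mouse 3, at 6.5. Of the red cell genes not above the limit, Hbb-b2 was highest in mouse 2, at 5.31, and Alas2 in mouse 1, at 5.73. The part of these markers in the synthesis genes was not tested. The deviations were narrower for the peroxiredoxin and thioredoxin system, at -0.04, 0.05, 0.03 and -0.04 over 8 genes. For the glutathione transferases they were 0.01, -0.03, 0.09 and -0.07 over 7 genes, with 4 of 7 highest in mouse 3 and 4 of 7 lowest in mouse 4. Each gene entered by its brightest probe set. The second probe sets of Gstm1 and Gstm2, also over the limit on all arrays, peaked in mouse 1 instead, and neither was lowest in mouse 4. Outside the mu class, Gstz1 had both ends, at 6.33 and 6.22. Reads of mu genes may include their neighbours, so these genes may not count separately. The mean of 4 macrophage genes had the same mice at its ends as the transferase mean, at -0.01, 0.01, 0.23 and -0.23. Of these genes C1qa, C1qb and C1qc shared both ends. Cd14 did not, with 6.62, 6.6, 6.67 and 6.69 in mice 1 to 4, so that it peaked in mouse 4. The mean of 3 genes of B and plasma cells, Ighm, Igha and Ms4a1, was also lowest in mouse 4, at -0.03, 0.55, 0.37 and -0.89. Ighm and Igha carried this, while Ms4a1 was lowest in mouse 1 and Cd79a, outside the mean, was highest in mouse 4. The part of either list in the transferases was not tested.

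**Figure D4:**
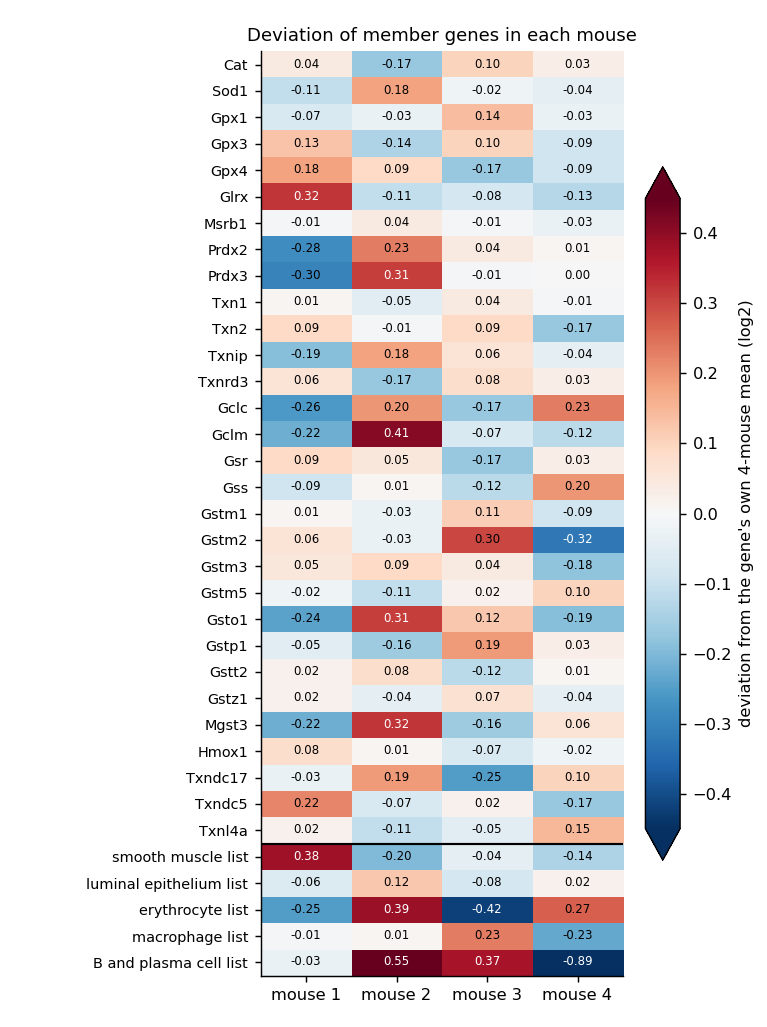
Deviation of each member gene from its own 4-mouse mean (log2 units, colour and printed value), mice in columns, for the 28 genes above the mean limit plus Gsto1 and Mgst3. The rows under the line give the mean deviation of 5 marker lists, and colours stop at the ends of the scale. Gclm reaches 0.41 in mouse 2, Prdx3 -0.30 in mouse 1 and 0.31 in mouse 2, and Gstm2 -0.32 in mouse 4, beside 0.38 for smooth muscle in mouse 1 and -0.89 for B and plasma cell genes in mouse 4.

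Many antioxidant genes are targets of NRF2 (gene Nfe2l2), which binds the antioxidant response element, and KEAP1 holds it in check. Nfe2l2 averaged 5.61 ± 0.09 and Keap1 4.35 ± 0.10 (SD, n = 4 each), both under the limit, while the related factor Nfe2l1 was above at 7.66 ± 0.09 (SD, n = 4). In the list of regulators 5 of 12 measured genes were above, beside 29.2% of all 8251 genes. Of these 12, 0 were at an unadjusted p under 0.05 by limma's variance model. The core of the element, TGACNNNGC, was searched on both strands in RefSeq windows of GRCm38.p6 from 250 bases before to 50 after a gene's start. Of 46 member genes with such a window 8, or 17.4%, held it, beside 16.9% of 6573 genes of the array and 14% of all 27025 genes. Among member genes above the background range it was 3 of 21, or 14.3%.

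The matches in members above the range, Gstm5, Sod1 and Txndc5, and in Gclm, the member of widest spread, are shown because they are the letters behind this count. Each is printed 5′ to 3′ on the gene's strand with 20 bases on either side, and capitals mark the match, which reads GCNNNGTCA where it lies on the opposite strand.
Gstm5, chr3:107895792-107895840, plus strand: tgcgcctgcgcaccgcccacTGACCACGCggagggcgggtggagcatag
Sod1, chr16:90220686-90220734, plus strand: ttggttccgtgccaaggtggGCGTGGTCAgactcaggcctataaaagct
Txndc5, chr13:38528024-38528072, minus strand: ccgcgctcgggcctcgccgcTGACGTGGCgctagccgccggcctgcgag
Gclm, chr3:122245403-122245451, plus strand: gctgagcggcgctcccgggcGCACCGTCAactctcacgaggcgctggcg
The match began 42 bases before the start of Gstm5, 56 before that of Sod1, 138 before that of Txndc5 and 134 before that of Gclm. A match of these letters is a description and does not show a binding site.

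The genes around the members were counted in the same way. Each list's count above the limit stands beside 29.2% of all 8251 genes. NADPH feeds both reductase systems, and of 8 measured genes that supply it 4 were above the limit. From the pentose phosphate pathway these included Pgd at 7.76 ± 0.07 and Tkt at 7.11 ± 0.05, while G6pd2 was not above at 3.03 ± 0.09 (SD, n = 4 each). G6pdx, the other glucose-6-phosphate dehydrogenase gene of the list, was not among those measured. The value of G6pd2 therefore does not give the level of that enzyme. Nnt, the mitochondrial transhydrogenase whose gene carries a deletion in C57BL/6J mice, had 6.05, 5.34, 6.36 and 5.21 in mice 1 to 4 (SD 0.55, limma's adjusted p = 0.127). Idh1 had 5.12, 5.73, 5.65 and 5.38 (SD 0.28; limma, adjusted p = 0.846). Neither was called.

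Several members are selenoproteins, and of 11 measured genes of selenoprotein synthesis and other selenoproteins 4 were above, all of them selenoproteins of the endoplasmic reticulum. Among them Selenof had 10.37, 10.29, 10.05 and 10.30 in mice 1 to 4. The synthesis genes Sephs1 (3.73 ± 0.09, SD, n = 4) and Sepsecs (3.69 ± 0.16) were under the limit, and so was Sephs2 at 3.30, 3.50, 3.97 and 3.23 (SD 0.34; limma, adjusted p = 0.562). For glutathione precursors and turnover 3 of 11 were above. Slc3a2, the heavy chain shared by several amino acid exchangers, had 9.30 ± 0.21 and Ahcy 6.73 ± 0.08, while the cystine exchanger Slc7a11 had 2.18 ± 0.13 (SD, n = 4 each).

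Of oxidant sources and iron genes 3 of 11 were above, including Cyba, the p22phox subunit of NADPH oxidases, at 6.81 ± 0.11. Cybb, the phagocyte oxidase subunit, had 4.08 ± 0.15 and Ncf1 5.43 ± 0.15 (SD, n = 4 each), both not above. Oxidative folding in the endoplasmic reticulum was above in 9 of 9 genes, with P4hb at 9.06 ± 0.20 and Pdia3 at 8.15 ± 0.14 (SD, n = 4 each). The brightest probe sets of P4hb, Ero1a and Ero1b carry a suffix letter, so what they read is less certain. In that list Qsox1, a secreted sulfhydryl oxidase that makes hydrogen peroxide, had 10.47, 9.84, 10.60 and 9.66 in mice 1 to 4 (SD 0.46; limma, adjusted p = 0.243). The oxidase Ero1b had 9.51, 8.92, 9.57 and 8.93 (SD 0.35; limma, adjusted p = 0.573), and Pdia4 had 6.89, 6.85, 7.56 and 7.01 (SD 0.33; limma, adjusted p = 0.649).

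Of other metal and thiol proteins 6 of 8 were above. The metallothioneins Mt1 and Mt2, small metal-binding proteins, had wider SDs than any member. Mt1 had 7.62, 7.05, 8.17 and 7.52 in mice 1 to 4 (SD 0.46; limma, adjusted p = 0.244) and Mt2 had 7.75, 6.79, 7.97 and 7.11 (SD 0.55; limma, adjusted p = 0.132). Both were lowest in mouse 2 and highest in mouse 3. Mt3 had 8.10 ± 0.11 (SD, n = 4), and Cp, the ferroxidase ceruloplasmin, 3.79, 3.64, 4.03 and 3.37 (SD 0.28; limma, adjusted p = 0.806). Limma's variance model called 0 of the 70 measured genes of these 7 lists. At an unadjusted p under 0.05 stood 9, or 12.9%, beside 5.44% of all probe sets.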

How the data were processed

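Total RNA of 4 seminal vesicles was labelled with biotin and hybridised to Affymetrix arrays, per the labels' protocols. The deposited table holds 1 log2 expression value for each probe set and array, computed by the authors with RMA according to the submitters' processing notes. That method removes background, equalises the distributions of arrays and fits the probes of each set together. Neither its version nor which arrays were run together is given in the sources used here. The log2 scale was read from the values (1.47 to 13.2). RMA compresses differences of dim probe sets and would remove a shift shared by all genes.

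The 66 control probe sets were left out of 12488. Of the rest, 10833 had a single gene, 396 several and 1193 none in the platform annotation, and 10817 of the 10833 matched the RefSeq table of GRCm38.p6 by gene ID. All 73 members matched. For each gene the probe set with the highest mean gives the values. Outside the members some of these carry a suffix letter too, among them those of Ahcy, Cnn1 and Ighm. Each variance (3 degrees of freedom) was tested against limma's robust, signal-trended prior (8.06 degrees of freedom) by an upper-tail F test with Benjamini-Hochberg adjustment over 12422 probe sets, checked on simulated data. The background list held 67 genes of other organs. Every member is accounted for. All 4 values are printed for members above the limit, at an unadjusted p under 0.05 or with 1 mouse far from the others. Named genes of the 7 pathway lists are their first 3 measured genes and those at an unadjusted p under 0.05. The rule covers no marker list. All marker genes named outside the members were picked after their values were seen, as were Ccs and Selenof. The members and lists were chosen with earlier results of these data known. Alternatives covered scaling, prior, filters, background limits, probe set choice and leaving out each mouse. The number of arrays, 4, limits precision. R 4.3.3, limma 3.58.1, Python 3.11.15 and matplotlib 3.10.9 were used.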

Additional observations from a re-analysis of the deposited data

Results flagged for a closer look

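In 2 of the 73 member probe sets, or 2.74%, beside 5.09% of all probe sets, 1 mouse lay far from the other 3, by the gap between it and its nearest neighbour relative to the whole range. Chance flags about 1 in 20 such groups. Glrx was highest in mouse 1 at 7.41, against 6.97, 7.0 and 6.96 in mice 2 to 4. The second probe set of Gstm1 was lowest in mouse 2 at 6.49, against 6.84, 6.81 and 6.78 in mice 1, 3 and 4, while the brighter one had 9.99 in mouse 2 and was lowest in mouse 4.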

How the results depend on the processing

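No member probe set was called by limma's variance model under any of the 13 settings run, which left the lowest adjusted p between 0.512 and 0.951, with 0 to 7 members at an unadjusted p under 0.05. Without mouse 2 the SD of Gclm was 0.08 in place of 0.28. The count of 26 genes above the background range was 23 with a limit at the 95th percentile of the background list, 31 at the 75th, 38 with each array's median, 28 by the mean over arrays and 26 or 27 when a mouse was left out. It was 19 with unsuffixed probe sets only, a setting chosen after seeing the data. Leaving out a mouse can only keep or raise this count. The mean deviation of member genes in mouse 2, 0.03, was 0 after renewed quantile normalization and 0 with a median in place of the mean. It was 0.05 with arrays shifted to the same median. The other deviations moved by less than the SD over mice of 0.023. Leaving out a mouse gave 0.02 to 0.03 for mouse 2. No paired analysis was possible because the labels give a single group. Signal near background limits what can be said of the 29 genes not above the range.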
